A study of Mus musculus with 4 samples.

Results

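Stromal cells of the mouse bone metaphysis that carried transcripts of *Hs3st5*, *Nlgn1* and *Kcnk2* together were followed in control and *Lats2*iECKO long bones by droplet-based single-cell RNA sequencing. The members were chosen by their measured transcripts: a cell was taken when its reads held at least 3 UMIs (unique molecular identifiers, 1 per captured RNA molecule) of the 3 genes in sum and at least 2 of the 3 genes were detected. Cells with a UMI of *Cdh5*, which marks endothelial cells, or of *Ptprc*, which marks leukocytes, were left out, as were cells with more than 1 UMI of the matrix protease gene *Mmp9* or of the osteocyte gene *Mepe*. Cells with at least 200 UMIs of the osteocalcin gene *Bglap* or at least 20 UMIs of the cartilage collagen gene *Col2a1* per 10000 UMIs were left out as well. Of 24739 cell barcodes with at least 1000 UMIs, at least 800 detected features, under 15% mitochondrial and under 5% hemoglobin UMIs, 936 met the rule, namely 368 and 394 in control libraries 1 and 2 and 83 and 91 in *Lats2*iECKO libraries 1 and 2.

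Both *Lats2*iECKO libraries came from mice with loxP-flanked *Lats2* alleles and the tamoxifen-inducible Cre-ERT2 recombinase under the *Cdh5*(PAC) promoter, which is active in endothelial cells, so that the kinase gene *Lats2* was to be lost in vessels and not in the stromal cells described here. The controls were littermates without the Cre transgene. By the study's methods they received the same tamoxifen course, although their treatment label reads untreated. The methods also describe a *Cdh5*(PAC)-mT/nG reporter in this line without naming the mice that were sequenced, and tdTomato and eGFP had 0 UMIs in the members and in the 613 to 958 *Cdh5*-positive cells of each library. The mice were kept on a C57BL/6 background and were examined at 12 weeks of age. The metaphyses of femur and tibia were dissected and digested, and cells with blood lineage markers, CD45 or CD117 were depleted before loading. Each genotype has 2 libraries, and the sources used here do not say how many mice, or of which sex, went into each.

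The metaphysis lies below the growth plate, where vessels, osteoclasts and cells of the bone lineage replace cartilage with trabecular bone. *Hs3st5* encodes a heparan sulfate 3-O-sulfotransferase, an enzyme that adds a late modification to heparan sulfate chains. *Nlgn1* encodes neuroligin 1, a cell adhesion protein best known from synapses, where it binds neurexins. *Kcnk2* encodes TREK-1, a 2-pore-domain potassium channel that opens on membrane stretch. In GRCm39 coordinates *Hs3st5* spans chr10:36382794-36710393 on the plus strand, *Nlgn1* chr3:25480379-26386609 on the minus strand and *Kcnk2* chr1:188940126-189134470 on the minus strand, all as protein-coding genes. Counting covered exons and introns, so a UMI can come from anywhere in these long genes.

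The libraries held 69636600 to 85899079 UMIs and 5133 to 6868 of the cell barcodes used, with 6 to 16 barcode sequences in common between any pair of libraries and none among the members. The median member had 8413 to 8646.5 UMIs in controls and 8511 and 7142 UMIs in *Lats2*iECKO libraries 1 and 2. The members' UMIs summed to 3602818 and 3685365 in controls but to 753806 and 754994 in *Lats2*iECKO, so every mutant level below rests on far fewer counts than its control level. *Lats2* in the members was at 86.04 and 71.9 CPM (counts per 1000000 UMIs of the summed members) in controls and at 63.9 and 85.4 CPM in *Lats2*iECKO, with overlapping groups (log2 change -0.04, adjusted p = 0.909). In *Cdh5*-positive cells *Lats2* was at 111 and 101 CPM against 83.1 and 87.0 CPM. Cre-ERT2 RNA was found there in 27.2% and 25.1% of mutant and 0.313% and 0.214% of control cells, and in 0 of 174 mutant members, which allows a share of up to 1.72% of cells with a UMI and does not limit the share of cells that express it.

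The name given to these cells was first checked in the control libraries, as a description, since the rule had already used the same cells. Classes of cells were set here by marker genes and did not overlap. Cells that met the rule for members were counted as members, including 54 and 60 control cells that also met the rule for reticular cells. *Limch1*, which encodes an actomyosin-regulating protein, was at 2414 CPM in control members against 435 CPM in the next highest class of cells. *Ndnf*, a secreted factor gene, was at 333 CPM against 35.7 CPM. Both thus led in the members without being part of the rule, although every gene of a chosen cell is tied to the choice. *Tnc* and *Postn*, genes of the matricellular proteins tenascin C and periostin, separated the members less, with 5587 CPM of *Tnc* and 364 CPM of *Postn* against 4662 and 323 CPM in *Mmp9*-positive stromal cells. Of the rule genes, *Hs3st5* was at 557 CPM against 61.1 CPM in the next class, *Nlgn1* at 764 against 401 CPM and *Kcnk2* at 777 against 135 CPM.

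Several other genes also had their highest level of all classes in the control members. The potassium channel gene *Kcnb2* was 18.9 times and the channel-interacting protein gene *Kcnip4* 13.0 times the level of the next class as a ratio of CPM + 1. The channel gene *Kcnh1* was at 143 CPM against 24.1 CPM, the adhesion gene *Ntng1* at 59.9 against 9.95 CPM, and *Hs3st4*, a second 3-O-sulfotransferase gene, at 78.7 against 17.4 CPM. *Wif1*, which encodes a secreted Wnt inhibitor, was at 1837 CPM against 664 CPM, and *Tnfrsf19*, a receptor gene of the TNF receptor family, at 817 against 325 CPM. The members also held bone lineage transcripts, with 1545 CPM of *Alpl*, the alkaline phosphatase gene, and 195 CPM of *Sp7*, the osterix gene, against at most 1295 and 181 CPM elsewhere. Their *Col1a1*, the main collagen gene of bone, was at 5073 CPM and far below the 104019 CPM of osteocalcin-high cells. Transcripts of marrow reticular cells were far below those of reticular cells but above the other classes, with 3327 CPM of *Cxcl12* and 302 CPM of the leptin receptor gene *Lepr* against 20467 and 1896 CPM in reticular cells and 2180 and 229 CPM in the next class. The bone lineage genes were thus shared with other bone cells, and *Spp1*, a bone matrix gene at 13111 CPM, was below the 20844 and 20519 CPM of *Mepe*-positive and *Mmp9*-positive cells. Position in the bone was not measured.

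**Figure D1:**
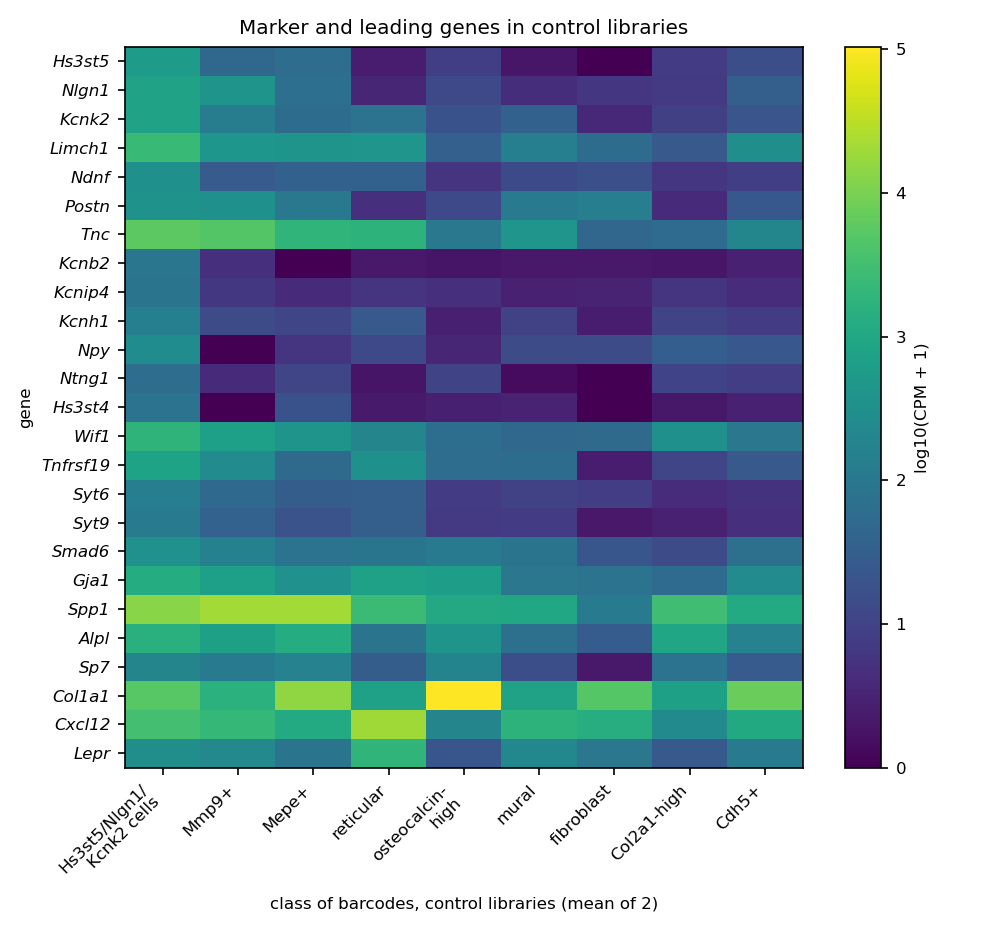
Level of the marker and leading genes in each class of cells, as log10(CPM + 1) of the summed UMIs, mean of the 2 control libraries; rows are genes, columns are classes. *Limch1* reached 2414 CPM in the *Hs3st5*/*Nlgn1*/*Kcnk2* cells against 435 CPM in the next class, whereas *Tnc* was nearly as high in *Mmp9*-positive cells.

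The cells made up a smaller part of the *Lats2*iECKO libraries. They were 5.36% and 5.76% of all cells used in controls and 1.62% and 1.54% in *Lats2*iECKO, or 5.56% ± 0.285 against 1.58% ± 0.0526 (SD, n = 2 libraries each). The groups did not overlap. The log2 change of the share was -1.82 (SE 0.104, adjusted p = 6.56e-14 by edgeR's quasi-likelihood test over the 11 classes), while an exact permutation test of the 4 percentages gave p = 0.3333, the smallest value that 2 against 2 libraries allow. Shares are relative, and other classes moved too: *Col2a1*-high chondrocytes took 34.9% of the *Lats2*iECKO and 19.7% of the control cells, reticular cells 8.36% and 23.1%, and osteocalcin-high cells 1.96% and 8.07%. Mural cells took 9.67% and 4.92%, and *Mmp9*-positive stromal cells, which the rule left out, 1.85% and 0.941%. Fewer cells of this kind, and cells with less RNA of the 3 genes, cannot be told apart in such a count.

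The fall was larger when more of the markers had to be detected. With a UMI of *Limch1* required as well, an alternative added after the data were seen, the share was 5.23% and 5.60% in controls and 0.916% and 0.983% in *Lats2*iECKO (log2 change -2.51, adjusted p = 1.42e-15). With all 3 genes detected it was -2.59, and with every cell thinned to equal depth -2.29. The smallest fall, -1.66, was found without cells holding a UMI of the fat-lineage gene *Adipoq*.

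**Figure D2:**
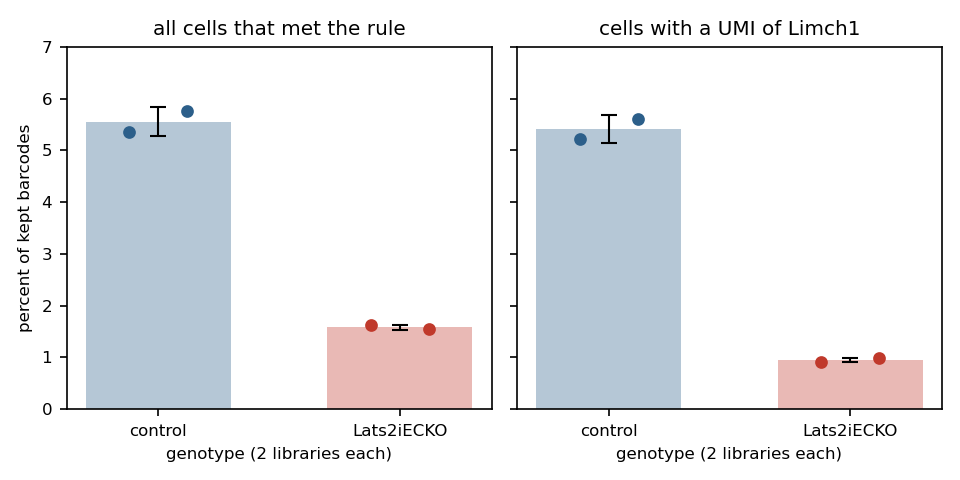
Share of the *Hs3st5*/*Nlgn1*/*Kcnk2* cells among all cells used, in percent, for each control and *Lats2*iECKO library, with bars at the mean and error bars of 1 SD; panels show all members and members with *Limch1*. The 2 *Lats2*iECKO libraries lay at 1.62% and 1.54%, below the controls at 5.36% and 5.76%.

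Within the members, the 2 genotypes differed in how the rule was met, which is given as a description because the rule used these genes. All 3 genes were detected in 59.2% and 60.9% of control members and in 28.9% and 40.7% of *Lats2*iECKO members. A further 53.0% and 38.5% of the mutant members had *Nlgn1* and *Kcnk2* but not *Hs3st5*, against 26.1% and 22.3% in controls. The median sum of the 3 genes was 20.8 and 20.5 UMIs per 10000 in controls and 12.0 and 13.4 in *Lats2*iECKO. By gene, *Hs3st5* was at 533 and 581 CPM in controls and 269 and 301 CPM in mutants, *Nlgn1* at 762 and 766 against 491 and 453 CPM, and *Kcnk2* at 768 and 785 against 613 and 588 CPM. All 3 genes were thus at a lower CPM in both mutant libraries than in either control. The share of members with a UMI did not fall for every gene, since *Kcnk2* was detected in 94.8% and 92.6% of control and 97.6% and 94.5% of mutant members.

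*Limch1* split the mutant members. It was detected in 97.6% and 97.2% of control members and in 56.6% and 63.7% of *Lats2*iECKO members, leaving 9, 11, 36 and 33 cells without it. Thinned to 2000 UMIs per cell, which left out 8, 2, 0 and 3 cells, the shares were 92.8%, 91.8%, 48.2% and 58.0%. For scale, *Limch1* was found in 20.6% of control and 18.5% of mutant osteocalcin-high cells, whose median depth of 14189 to 21328.5 UMIs was higher. In *Lats2*iECKO the members without *Limch1* were shallower, with medians of 6716.5 and 6037 UMIs against 9366 and 7939.5 UMIs in those with it. Nearly every control member therefore carried this marker, whereas 43.4% and 36.3% of the mutant members did not.

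The 36 and 33 *Limch1*-negative mutant members were alike in some genes and not in others. Summed over them, the cartilage-associated genes *Cytl1* and *Chad* were at 1715 and 1157 CPM in *Lats2*iECKO library 1 but at 37.9 and 189 CPM in library 2, and *Msmp* at 0 and 1667 CPM. *Mgp*, which encodes an inhibitor of calcification, was high in both, at 5001 and 10356 CPM. *Npy*, a neuropeptide gene, had no UMI in them in either library. Some genes lay above the mutant members with *Limch1* in both libraries: *Chad* (38.4 and 26.5 CPM with *Limch1*), *Comp* (1385 and 398 against 154 and 155 CPM), *S100a4* (509 and 570 against 197 and 80.4 CPM) and *Thbs1* (263 and 220 against 64.0 and 55.0 CPM). *Cytl1* lay below them in library 2 (53.0 CPM with *Limch1*). The part of these cells in the calls of all members was not tested. Counts are therefore given below for all members and for members with *Limch1*.

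At the edge of the rule, 9, 7, 14 and 15 cells of *Lats2*iECKO libraries 1 and 2 and control libraries 1 and 2 had 3 to under 4 UMIs of the genes, and 11, 18, 14 and 14 otherwise eligible cells fell short with 2 to under 3 UMIs. *Limch1* was at 663, 1024, 761 and 1298 CPM just inside and at 305, 97.7, 467 and 567 CPM just outside, in the same order. *Limch1* and *Tnc* were lower just outside in each of the 4 libraries, whereas *Wif1* was higher there in *Lats2*iECKO library 1 (1013 against 291 CPM just inside) and control library 1 (622 against 391.8 CPM), *Postn* in control library 1 (411 against 222 CPM) and *Ndnf* in *Lats2*iECKO library 1 (83.2 against 46.5 CPM).

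**Figure D3:**
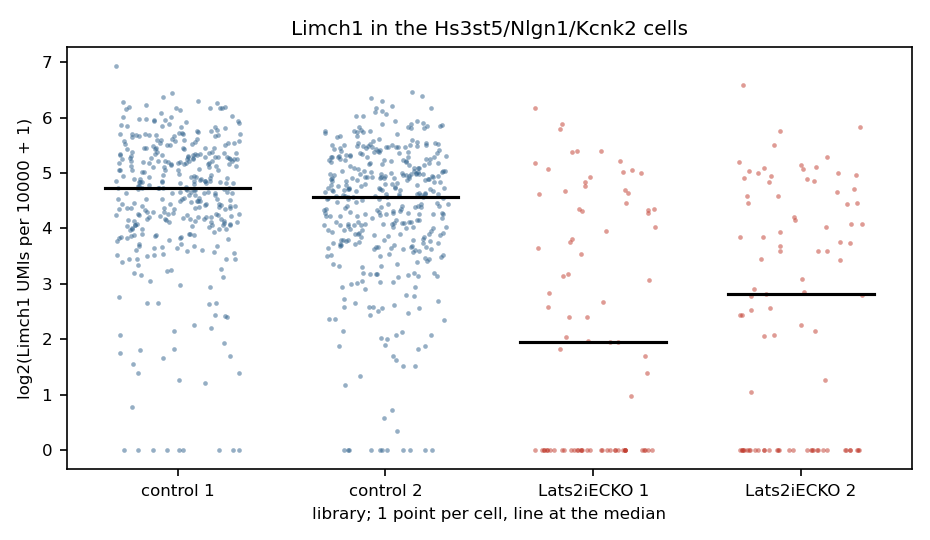
*Limch1* per cell in the *Hs3st5*/*Nlgn1*/*Kcnk2* cells of each library, as log2(UMIs per 10000 + 1), 1 point per cell with a line at the median. Points at 0 are cells without a *Limch1* UMI, 2.4% and 2.8% of control and 43.4% and 36.3% of *Lats2*iECKO members.

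Next, summed counts of the members were compared between genotypes gene by gene. Of 6263 genes tested with edgeR's quasi-likelihood test, 385 (6.15%) were higher and 260 (4.15%) lower in *Lats2*iECKO at an adjusted p of at most 0.05, with 110 and 46 of them changed at least 2-fold. In members with *Limch1*, 58 (0.901%) and 52 (0.808%) of 6439 genes passed. Of these 110 genes, 106 (96.4%) were also among the 645 called in all members, where they made up 16.4%, and all 106 had the same sign. Members with *Limch1* are part of all members, with 359 of 368 and 383 of 394 control and 47 of 83 and 58 of 91 mutant cells. Such agreement is thus largely set by the shared cells and is no further support. Of the 645 genes 621 could be tested in both sets, with a median size of change of 0.705 in all members and 0.485 with *Limch1*. The counts depended on the library left out: without control library 1 the counts were 16 higher and 10 lower and without control library 2 25 and 14, whereas they were 318 and 196 without *Lats2*iECKO library 1 and 354 and 243 without library 2. Of 80 genes followed singly that passed in all members, 20 kept the call without control library 1 and 29 without control library 2. The 18 that kept it without any single library were *Mgp*, *S100a4*, *Ccn2*, *Ccn5*, *Tnfsf11*, *Socs3*, *Slc5a3*, *Gadd45b*, *Ier3*, *Capg*, *Ndufa4l2*, *Col4a1*, *Col1a1*, *Col1a2*, *Bglap2*, *Car3*, *Pdzd2* and *Limch1*, and the other calls were lost without at least 1 library. Among members with *Limch1*, 23 of 42 such calls held without control library 1 and 0 of 42 without control library 2, where edgeR left 1 gene higher and 0 lower in all and 529 at an unadjusted p under 0.05.

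Of the genes followed and called, 20 were detected in at least 20% of the members of 1 genotype alone, among them *S100a4*, *Ccn5*, *Ltbp2*, *Loxl2*, *Ndufa4l2*, *Col10a1*, *Unc5c*, *Smpd3* and *Fbn2*, and so entered the test through the group where they were high. All 20 stand as a description, including *S100a4*, *Ccn5*, *Capg* and *Ndufa4l2* of the 18 genes that kept the call without any single library. Without the filter on the share of cells 19 of the 20 were still called, and *Fzd1* was not (edgeR, adjusted p = 0.0707). The counts per gene list below still include such genes as calls. They are *S100a4* (myofibroblast), *Unc5c* (guidance), *Fbn2* (matrix), *Loxl2* (collagen-modifying), *Axl* (YAP and TAZ targets), *Ltbp2* and *Grem1* (BMP and TGF-beta), *Fzd1* and *Ror2* (Wnt), *Grem1* (reticular niche) and *Col10a1* (chondrocyte). Genes not followed singly were not looked at in this way. Genes picked by size were also required to have both mutant libraries beyond both controls, so that for them the lack of overlap is no further observation. For the other genes it is a description as well. It was not set against its share over all genes tested, and the order of 2 against 2 libraries alone parts them with a probability of 0.3333.

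Both a choice of members at equal depth and one without mural transcripts changed single calls. When each cell was first thinned to 2000 UMIs, 31 and 45 *Lats2*iECKO and 222 and 240 control cells met the rule, and 121 genes were higher and 50 lower. Of 74 followed genes that could be tested there, 47 kept the call, 26 lost it and *Spp1* turned to -0.09 (adjusted p = 0.840). Those that lost it include *Col1a1*, *Col1a2*, *Kcnma1* and *Kcnh1*, whose values stand with them below. *Runx2* was then at -0.38 (adjusted p = 0.110), *Sp7* at -0.71 (adjusted p = 0.130), *Ibsp* at 0.48 (adjusted p = 0.105), *Alpl* at -0.23 (adjusted p = 0.404) and *Fbn2* at -1.03 (adjusted p = 0.0506). *Pdgfrb* was at 0.55 (adjusted p = 0.0844), *Notch3* at 0.65 (adjusted p = 0.0803), *Robo1* at -0.50 (adjusted p = 0.122), *Csf1* at 0.03 (adjusted p = 0.956), *Fn1* at 0.57 (adjusted p = 0.302) and *Lpl* at 0.62 (adjusted p = 0.0844). *Ccn2* (0.82), *Mmp16* (-1.01), *Pdzd2* (-1.09), *Bglap2* (-0.93) and *Fos* (1.11) still passed with smaller changes than in all members, and *Smpd3* could not be tested.

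Without cells holding a UMI of *Rgs5*, *Notch3* or *Myh11*, which mark mural cells, 30 and 44 *Lats2*iECKO and 191 and 214 control members were left, and 143 genes were higher and 74 lower. Of 72 followed genes 50 kept the call, among them *Pdgfrb* (0.68, adjusted p = 0.0362) and *Postn* (0.74, adjusted p = 0.0324), and 22 lost it. *Wif1* was then at -0.37 (adjusted p = 0.220), *Tnc* at -0.21 (adjusted p = 0.473), *Alpl* at -0.44 (adjusted p = 0.128), *Fbn2* at -0.22 (adjusted p = 0.667) and *Lpl* at 0.70 (adjusted p = 0.302). *Spp1* was at 0.47 (adjusted p = 0.129), *Ibsp* at 0.71 (adjusted p = 0.142), *Thbs1* at 0.90 (adjusted p = 0.102), *Robo1* at -0.49 (adjusted p = 0.175) and *Epha3* at 1.14 (adjusted p = 0.0687). *Csf1* was at 0.53 (adjusted p = 0.117), *Htra1* at 0.68 (adjusted p = 0.0815), *Tenm4* at -0.64 (adjusted p = 0.0941) and *Tgfb1* at 0.81 (adjusted p = 0.0868). *Notch3*, *Ccn5* and *Ltbp2* could not be tested there. The part of the cells removed in the remaining differences was not tested.

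Levels below are CPM of control libraries 1 and 2, then of *Lats2*iECKO libraries 1 and 2. Among the markers that the rule did not use, *Limch1* itself was at 2535 and 2293 against 1190 and 1266 CPM (log2 change -0.93, SE 0.074, adjusted p = 6.21e-05). *Ndnf* was at 307 and 358 against 171 and 268 CPM (-0.56, adjusted p = 0.0598), and did not pass. *Postn* was at 393 and 334 against 678 and 638 CPM. It rose by 0.90 (SE 0.0937, adjusted p = 0.000229), and by 0.91 (adjusted p = 0.00298) in members with *Limch1*. *Tnc* was at 5684 and 5489 against 4049 and 4436 CPM and fell by 0.35 (adjusted p = 0.00891), but the fall was 0.13 (adjusted p = 0.626) in members with *Limch1*. The marker genes did not move together, and of *Ndnf*, *Postn* and *Tnc* it was *Postn* that passed in both sets of members.

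Bone lineage genes fell more often than they rose. Of 17 tested genes of the metaphyseal osteogenic list 3 were higher and 7 lower, with a median log2 change of -0.35, against a median of -0.008 over all genes tested. In members with *Limch1* the counts were 2 and 2 and the median -0.17. *Sp7* was at 191 and 199 against 109 and 75.5 CPM (-1.04, adjusted p = 0.00168, and -0.79, adjusted p = 0.0415 with *Limch1*). *Runx2*, the early osteoblast transcription factor gene, was at 3106 and 3247 against 2156 and 2053 CPM (-0.55, adjusted p = 0.000547), and missed the threshold with *Limch1* (-0.47, adjusted p = 0.0528). Both transcription factor genes thus pointed the same way.

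The mature bone genes mostly fell, with *Spp1* and *Ibsp* as exceptions. Of 6 tested genes of a mature osteoblast list 1 was higher and 4 lower (median -0.94), and with *Limch1* 0 and 4 (median -0.89), with 0 higher and 5 lower at an unadjusted p under 0.05 and 4 called by DESeq2. *Bglap2*, a second osteocalcin gene, was at 1372 and 1428 against 553 and 469 CPM (-1.41, adjusted p = 1.92e-05, and -0.89, adjusted p = 0.00319 with *Limch1*), although the rule capped its neighbour *Bglap* in every cell. *Smpd3*, whose sphingomyelinase is needed for bone mineralization, was at 117 and 107 against 35.8 and 34.4 CPM (-1.63, and -1.995 with *Limch1*). It was detected in 22.6% of control and 13.8% of mutant members and stands as a description. *Car3*, a carbonic anhydrase gene, was at 729 and 984 against 321 and 346 CPM (-1.32 and, with *Limch1*, -0.88, adjusted p = 0.0235). *Bglap2* and *Car3* fell in both sets of members. *Spp1*, the osteopontin gene, was higher in *Lats2*iECKO at 18977 and 15697 against 14162 and 12061 CPM (0.45, adjusted p = 0.0183), and *Ibsp*, the bone sialoprotein gene, rose by 0.55 (adjusted p = 0.00983). Neither passed with *Limch1* (0.55, adjusted p = 0.0907, and 0.21, adjusted p = 0.384), and both turned negative when all 3 rule genes were required.

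The fibrillar and interstitial matrix genes moved in both directions. Of 28 tested, 10 were higher and 8 lower (median log2 change 0.10), and 3 and 4 in members with *Limch1* (median 0.12). Genes of type I collagen fell: *Col1a1* was at 4705 and 5441 against 2556 and 2613 CPM (-0.93, SE 0.081, adjusted p = 8.49e-05) and *Col1a2* at 4658 and 5426 against 2462 and 2583 CPM (-0.95, adjusted p = 8.49e-05). In members with *Limch1* both fell again, by 1.13 (adjusted p = 0.00257) and 0.96 (adjusted p = 0.00495). Among members chosen at equal depth neither passed, with -0.12 (adjusted p = 0.722) for *Col1a1* and -0.39 (adjusted p = 0.100) for *Col1a2*, so both calls depend on how the members are chosen. Free RNA, estimated from hemoglobin UMIs, made up 11.6% of the control level of *Col1a1*, and with it subtracted the change of *Col1a1* was -0.82 (adjusted p = 0.00144). *Vcan*, the gene of the large proteoglycan versican, was at 328 and 304 against 133 and 167 CPM (-1.03, adjusted p = 0.000428, and -0.89, adjusted p = 0.00714 with *Limch1*).

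Other matrix genes rose in the same cells. *Fbn1*, which encodes the microfibril protein fibrillin 1, was at 239 and 254 against 485 and 511 CPM (1.06, SE 0.0867, adjusted p = 6.21e-05, and 1.02, adjusted p = 0.00148 with *Limch1*). Its relative *Fbn2* was lower in mutants, at 97.5 and 95.5 against 51.7 and 42.4 CPM (-0.99, and -1.02 with *Limch1*). It was detected in 36.0% of control and 17.8% of mutant members and stands as a description, and without mural UMIs it was at -0.22 (adjusted p = 0.667). *Fmod*, the gene of the collagen-binding proteoglycan fibromodulin, was at 67.4 and 128 against 261 and 355 CPM (1.70, adjusted p = 0.00207, and 1.20, adjusted p = 0.0377 with *Limch1*). *Fn1*, the fibronectin gene, was at 415 and 530 against 800 and 885 CPM (0.88, adjusted p = 0.000844), but the difference was 0.36 (adjusted p = 0.159) with *Limch1*. *Mgp* was at 466 and 518 against 4029 and 4052 CPM and rose (3.08, SE 0.0774, adjusted p = 4.34e-09). In members with *Limch1* it was at 438 and 509 against 3437 and 662 CPM, so library 2 came close to the controls and the test did not pass (2.14, adjusted p = 0.0729).

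Of 8 basement membrane genes 3 were higher and 0 lower (3 and 0 also at an unadjusted p under 0.05, and 3 in all by DESeq2), namely *Col4a1*, *Col4a2* and *Lama2*. Vascular basement membrane is rich in the first pair. *Col4a1* was at 118 and 89.8 against 346 and 339 CPM (1.77, adjusted p = 4.86e-05), and did not pass with *Limch1* (1.22, adjusted p = 0.0683). Of 14 collagen-modifying genes 4 were higher (*Loxl1*, *P4ha1*, *Adamts2* and *Loxl2*) and 0 lower, with 2 lower at an unadjusted p under 0.05 and none called by DESeq2. In members with *Limch1* edgeR called 0 genes of either list, with 3 of each higher and 0 lower at an unadjusted p under 0.05, and DESeq2 called 1 basement membrane gene and 0 collagen-modifying genes.

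**Figure D4:**
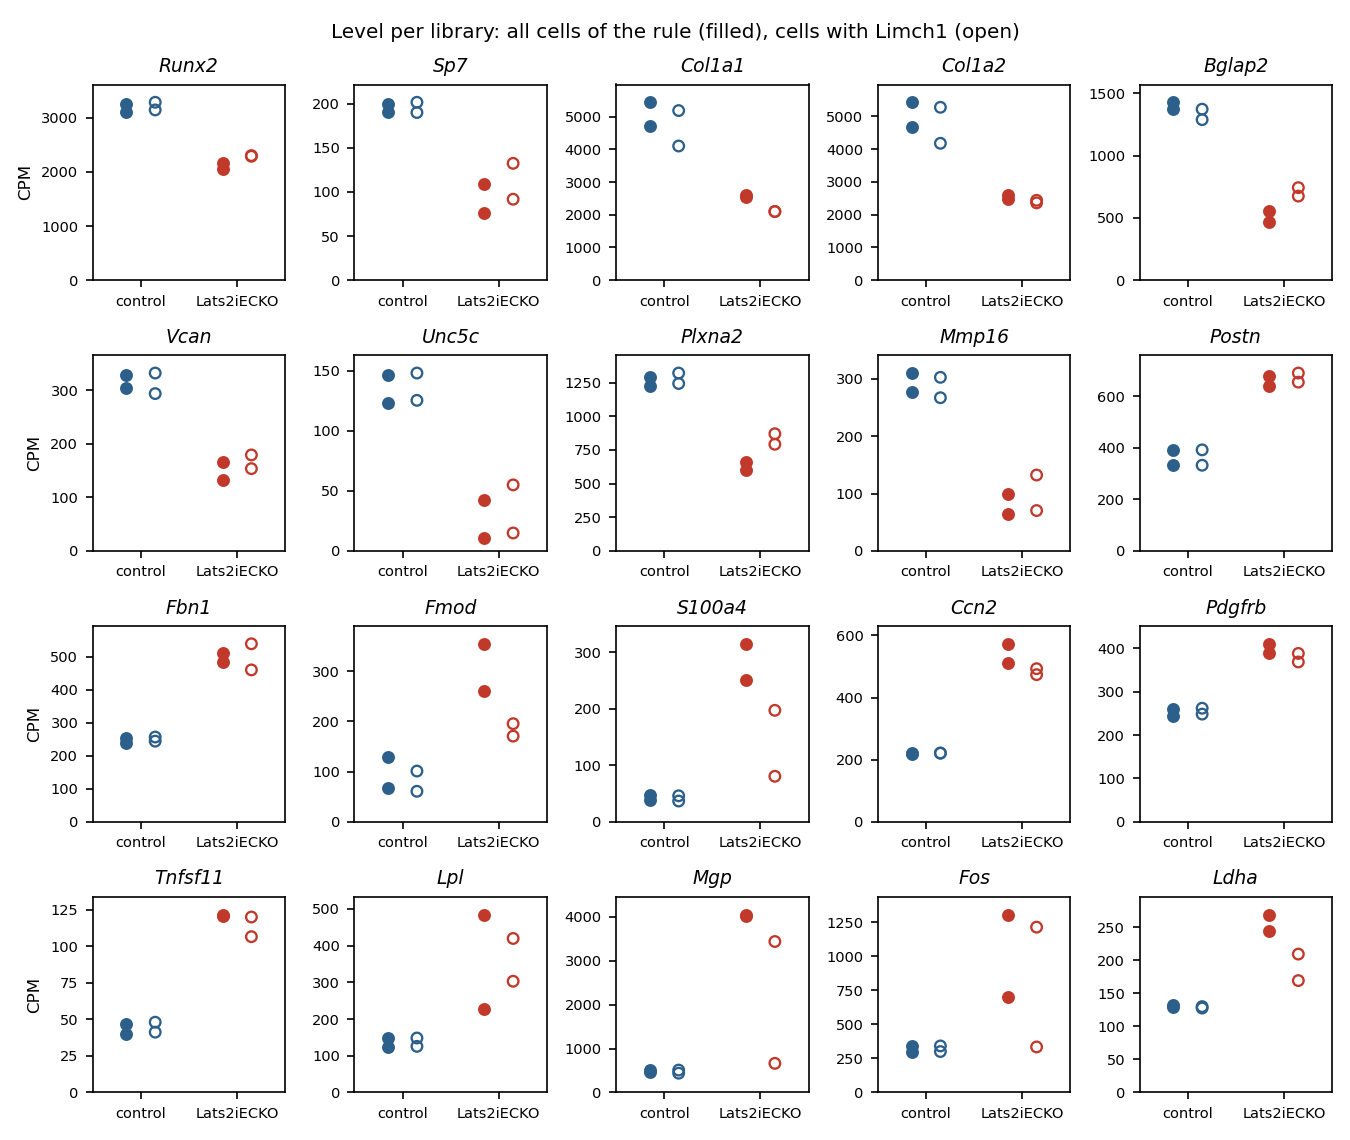
Level in CPM of named genes in the members of each library, control on the left and *Lats2*iECKO on the right of each panel; filled points are all members, open points members with *Limch1*, and each axis starts at 0. The 2 *Lats2*iECKO libraries of *Col1a1* lay at 2556 and 2613 CPM, below controls at 4705 and 5441 CPM, and in members with *Limch1* the 2 *Lats2*iECKO libraries of *Mgp* parted at 3437 and 662 CPM.

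Matrix proteases and their inhibitors moved in both directions. Of 19 tested, 7 were higher and 3 lower (median 0.39), and 2 and 3 of 18 with *Limch1*. *Mmp16*, which encodes a membrane-anchored matrix metalloprotease, was at 310 and 277 against 63.7 and 99.3 CPM (-1.80, SE 0.163, adjusted p = 9.64e-05, and -1.46, adjusted p = 0.00495 with *Limch1*). *Adamts9*, a protease gene that acts on versican, was at 664 and 625 against 329 and 335 CPM (-0.91, adjusted p = 8.49e-05, and -0.48, adjusted p = 0.0484 with *Limch1*). Both protease genes fell in both sets of members. *Htra1*, a secreted serine protease gene, was at 86.9 and 78.7 against 139 and 161 CPM (0.91, adjusted p = 0.00108, and 0.77, adjusted p = 0.0345 with *Limch1*). *Timp1*, a metalloprotease inhibitor gene, rose by 1.09 (adjusted p = 0.000543) but not with *Limch1* (0.63, adjusted p = 0.0767). *Mmp13*, the collagenase 3 gene of the chondro-osseous border, was at 1523 and 1155 against 1605 and 1781 CPM, and passed only with *Limch1* (0.39, adjusted p = 0.0576, and 0.66, adjusted p = 0.0387).

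Of 2 tested genes for signals that govern osteoclasts, *Tnfsf11* rose in both sets of members. *Tnfsf11*, which encodes RANKL, the ligand required for osteoclast formation, was at 46.9 and 40.2 against 121 and 122 CPM. The mutant libraries lay well above both controls (1.52, SE 0.146, adjusted p = 0.000139, and 1.36, adjusted p = 0.00455 with *Limch1*). *Csf1*, the gene of macrophage colony-stimulating factor, rose by 0.39 (adjusted p = 0.0466) in all members and missed the threshold with *Limch1* (0.48, adjusted p = 0.099), at equal depth, without mural UMIs and with free RNA subtracted (0.38, adjusted p = 0.0564). DESeq2 called 1 of the 2 genes.

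Genes linked to myofibroblasts rose in part. Of 16 tested, 8 were higher and 3 lower (median 0.52), and 3 and 1 of 15 with *Limch1* (median 0.33). *S100a4*, a calcium-binding protein gene used as a fibroblast marker, was at 39.3 and 47.9 against 315 and 252 CPM (2.75, and 1.77 with *Limch1*). It was detected in 46.0% of mutant and 14.0% of control members and stands as a description. *Vim*, the vimentin gene, was at 409 and 391 against 1010 and 770 CPM (1.20, adjusted p = 0.000113, and 0.87, adjusted p = 0.040 with *Limch1*). The higher genes also included *Tpm2* and *Cald1*, and the 3 lower ones were *Fap*, *Mylk* and *Cdh2*. The contractile genes *Acta2* and *Tagln* were too low to be tested: *Acta2* was at 13.0 and 51.6 against 90.2 and 25.2 CPM and *Tagln* at 3.89 and 20.1 against 51.7 and 23.8 CPM. For *Acta2* the groups overlapped. For *Tagln* both mutant libraries lay above both controls, and neither gene was tested. Summed mural markers (333 and 346 against 541 and 522 CPM) and fibroblast markers (14.7 and 47.5 against 83.6 and 95.4 CPM) were higher in both mutant libraries as well, as was the share of members that met the mural rule, and their part in the rise was not tested.

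Of 16 targets of the Hippo effectors YAP and TAZ, 6 were higher and 1 lower (median 0.37), and 2 and 0 of 15 with *Limch1*, where 3 were higher and 0 lower at an unadjusted p under 0.05 and DESeq2 called 2. *Ccn2*, which encodes connective tissue growth factor, was at 220 and 219 against 573 and 513 CPM (1.35, SE 0.0893, adjusted p = 2.43e-05, and 1.15, adjusted p = 0.000674 with *Limch1*). *Gadd45b*, a stress-inducible gene on the same list, was at 55.2 and 56.4 against 179 and 160 CPM (1.65, adjusted p = 4.61e-05, and 1.24, adjusted p = 0.0036 with *Limch1*). Both genes rose in both sets of members. *Thbs1*, the thrombospondin 1 gene, rose by 0.85 in all members (adjusted p = 0.00355). With *Limch1* it was at -0.25 (SE 0.194, adjusted p = 0.570), so no change was called there in either direction. The part of the cells without that marker in its rise was not tested. *Ccn5*, a relative of *Ccn2*, was at 25.8 and 22.0 against 101 and 87.4 CPM (2.02, and 1.68 with *Limch1*). It was detected in 27.6% of mutant and 10.4% of control members and stands as a description.

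Among receptors for ligands that endothelial cells can make, 8 of 23 were higher and 1 lower (median 0.36), and 1 and 1 of 24 with *Limch1*. *Pdgfrb*, the receptor for platelet-derived growth factor B, was at 260 and 245 against 390 and 411 CPM (0.71, SE 0.0881, adjusted p = 0.000616, and 0.59, adjusted p = 0.0226 with *Limch1*). *Pdgfra* was at 148 and 141 against 233 and 193 CPM (0.61, adjusted p = 0.00792) and *Notch3* at 114 and 113 against 166 and 163 CPM (0.58, adjusted p = 0.00831). Neither passed with *Limch1* (0.37, adjusted p = 0.256, and 0.48, adjusted p = 0.099). The one receptor that fell, the neuropilin gene *Nrp2*, which takes part in semaphorin and VEGF signalling, was at 675 and 670 against 296 and 416 CPM (-0.87, adjusted p = 0.00147, and -0.73, adjusted p = 0.0387 with *Limch1*).

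Guidance genes, known from axon and vessel pathfinding, fell more often than they rose. Of 16 tested, 7 were lower and 1 higher (median -0.44), and 4 and 1 with *Limch1* (median -0.20). *Unc5c*, a netrin receptor gene, was at 146 and 124 against 10.6 and 42.4 CPM (-2.30, and -1.93 with *Limch1*). It was detected in 41.3% of control and 12.1% of mutant members and stands as a description. *Plxna2*, a semaphorin receptor gene, was at 1292 and 1221 against 602 and 661 CPM (-0.95, adjusted p = 6.21e-05, and -0.61, adjusted p = 0.0186 with *Limch1*). *Robo1*, which encodes a receptor for Slit ligands, was at 257 and 241 against 143 and 162 CPM (-0.66, adjusted p = 0.00356, and -0.77, adjusted p = 0.0123 with *Limch1*). *Plxna2* and *Robo1* fell in both sets of members. *Epha3*, an ephrin receptor gene, was the exception at 58.2 and 55.9 against 114 and 136 CPM (1.18, adjusted p = 0.000428, and 0.90, adjusted p = 0.0283 with *Limch1*).

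The gene families of the rule were read next. Of 7 tested heparan sulfate enzyme genes edgeR called 0, with 0 higher and 1 lower at an unadjusted p under 0.05 and 0 called by DESeq2, and of 8 with *Limch1* it called 0 as well, with 1 higher and 0 lower at an unadjusted p under 0.05 and 0 by DESeq2. *Hs3st4* was at 80.5 and 76.9 against 63.7 and 68.9 CPM (-0.20, adjusted p = 0.431). Of 6 neuroligin and neurexin adhesion genes 1 fell, the teneurin gene *Tenm4* at 172 and 178 against 81.4 and 105 CPM (-0.87, adjusted p = 0.00267, and -0.45, adjusted p = 0.138 with *Limch1*). Of 7 such genes with *Limch1* edgeR and DESeq2 called 0, with 0 higher and 2 lower at an unadjusted p under 0.05. Of 4 potassium or stretch-activated channel genes *Kcnma1* and *Kcnh1* fell and 1 rose, and with *Limch1* 0 rose and 1 fell. *Kcnma1*, the large-conductance calcium-activated channel gene, was at 377 and 416 against 220 and 228 CPM (-0.78, adjusted p = 0.000675, and -0.81, adjusted p = 0.0154 with *Limch1*), but the call was lost at equal depth (-0.25, adjusted p = 0.449) and without mural UMIs (-0.77, adjusted p = 0.0868). *Kcnh1* was at 152 and 135 against 43.8 and 83.0 CPM (-1.12, adjusted p = 0.00653) and passed neither with *Limch1* (-0.60, adjusted p = 0.209) nor at equal depth (-0.44, adjusted p = 0.405).

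The genes that led in control members were followed as well. *Kcnb2* was at 88.3 and 92.7 against 13.3 and 46.8 CPM, in 20.7% and 23.4% of control and 4.82% and 12.1% of mutant members. It was chosen for its high level in controls and passed the gene filter only through them, so the values stand as a description. *Kcnip4* had 291 and 324 UMIs in controls and 1 and 3 UMIs in *Lats2*iECKO, or 80.8 and 87.9 against 1.33 and 3.97 CPM, in 15.8% and 18.5% of control and 1.20% and 3.30% of mutant members. The mutant share is no higher than in chondrocytes, where 3.30% of control and 3.75% of mutant *Col2a1*-high cells had a UMI at a median of 12180 to 14410 UMIs. The ratio of the CPM was 0.0314 (exact 95% Poisson interval 0.00853 to 0.0809, counting error only). *Kcnip4* was chosen in the same way and was found in too few members for the gene filter. *Npy* went apart within the mutants, at 33.2 and 332 CPM against 306 and 244 CPM in controls.

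Wnt, BMP, TGF-beta and hedgehog genes gave no common direction. Of 15 Wnt genes 2 were higher and 3 lower, with *Fzd1* and *Ror2* among them as a description. EdgeR and DESeq2 called 0 of 14 with *Limch1*, 1 higher and 3 lower at an unadjusted p under 0.05. *Wif1* was at 1844 and 1830 against 947 and 1037 CPM (-0.84, SE 0.0709, adjusted p = 7.38e-05), a fall of 0.42 with *Limch1* (adjusted p = 0.0729). Of 20 BMP and TGF-beta genes 2 rose and 2 fell, and 1 and 0 with *Limch1*. In all members these include *Ltbp2* among the rises and *Grem1* among the falls, which stand as a description. *Ltbp2*, which encodes a microfibril-bound relative of the latent TGF-beta binding proteins, was at 29.98 and 26.6 against 76.9 and 105 CPM (1.73, and 1.45 with *Limch1*). It was detected in 30.5% of mutant and 13.4% of control members and stands as a description. *Tgfb1* rose by 0.96 (adjusted p = 0.00608) but did not pass with *Limch1* (0.47, adjusted p = 0.352). Of 6 hedgehog genes edgeR and DESeq2 called 0 in both sets of members, with 1 higher and 0 lower at an unadjusted p under 0.05 in all members and 0 of either direction with *Limch1*.

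Reticular niche genes were mixed, with 4 of 16 higher and 3 lower, and 2 and 0 with *Limch1*, where 6 were higher and 1 lower at an unadjusted p under 0.05 and DESeq2 called 2. *Lpl*, the lipoprotein lipase gene, was at 149 and 124 against 228 and 485 CPM (1.43, adjusted p = 0.00522, and 1.42, adjusted p = 0.00148 with *Limch1*). *Cxcl12*, which retains blood stem cells in the marrow, was at 3412 and 3242 against 1973 and 3399 CPM (-0.26, adjusted p = 0.413), with overlapping groups. The share of members that also met the rule for reticular cells was 14.7% and 15.2% in controls and 6.02% and 7.69% in *Lats2*iECKO. The rule for mural cells was also met by 55 of 368 and 56 of 394 control members and by 16 of 83 and 21 of 91 *Lats2*iECKO members, a higher share in both mutant libraries.

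Immediate early and hypoxia genes moved with the genotype in all members. Of 17 immediate early and stress genes, which respond within minutes to stimuli that include tissue dissociation, 16 were higher and 0 lower (median 1.18, and 16 and 0 at an unadjusted p under 0.05, 15 by DESeq2). Their summed level was 2004 and 1835 CPM in controls and 5418 and 3539 CPM in *Lats2*iECKO, and in members with *Limch1* 2005 and 1800 against 4686 and 1937 CPM, where edgeR called 0 (9 higher and 0 lower at an unadjusted p under 0.05, 1 by DESeq2). *Fos* was at 298 and 342 against 1307 and 701 CPM (1.69, adjusted p = 0.00072) and, with *Limch1*, at 300.2 and 341 against 1214 and 334 CPM, so that the second mutant library then lay among the controls. Of 8 hypoxia and glycolysis genes 7 were higher and 0 lower, summed to 685 and 700 against 1160 and 1397 CPM, and with *Limch1* to 684 and 681 against 1037 and 865 CPM, where edgeR and DESeq2 called 0 and 4 were higher at an unadjusted p under 0.05. *Ldha*, the lactate dehydrogenase A gene, was at 129 and 132 against 244 and 269 CPM (1.02, adjusted p = 0.000207, and 0.57, adjusted p = 0.0729 with *Limch1*). The part of these genes in the other differences was not tested.

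Endothelial, leukocyte and fibroblast markers were low in the members. Summed over markers with at least 10 UMIs, 7 of 10 endothelial markers were at 46.9 and 11.1 CPM in controls and 15.03 and 18.5 CPM in *Lats2*iECKO, 7 of 10 leukocyte markers at 50.2 and 42.4 against 55.7 and 45.03 CPM, and fibroblast markers at 14.7 and 47.5 against 83.6 and 95.4 CPM. Fibroblast markers were thus higher in both mutant libraries, and no gene of these 3 lists passed the filter on low counts. The endothelial genes *Flt1*, *Kdr* and *Cldn5*, the fibroblast genes *Pi16* and *Slurp1* and the contractile mural genes *Myh11* and *Cnn1* had a rounded count of 0 in both mutant libraries. Mural markers summed to 333 and 346 against 541 and 522 CPM with 1 of 2 tested genes higher, chondrocyte markers to 361 and 856 against 919 and 491 CPM with 1 of 3 higher, and erythroid markers to 452 and 265 against 543 and 803 CPM with 1 of 4 higher. Osteocyte markers summed to 192 and 202 against 368 and 262 CPM, and adipocyte or Schwann markers to 324 and 318 against 263 and 299 CPM. Septoclast or osteoclast markers were not low, at 1680 and 1310 against 1803 and 2005 CPM. The mural, erythroid, osteocyte, septoclast or osteoclast and adipocyte or Schwann sums did not overlap between genotypes, which is a description. Of 2 osteocyte genes and 2 septoclast or osteoclast genes 1 each was higher, and of 1 adipocyte or Schwann gene and 2 cell cycle genes edgeR and DESeq2 called 0, with 1 cell cycle gene higher at an unadjusted p under 0.05. With *Limch1* the chondrocyte, erythroid, osteocyte and septoclast or osteoclast lists again had 1 gene higher each, and edgeR and DESeq2 called 0 of the mural, adipocyte or Schwann and cell cycle genes, with 1 mural gene higher at an unadjusted p under 0.05.

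Genes outside the pathway lists were picked by the size of their change. *Capg*, which encodes an actin-capping protein, was at 7.22 and 7.05 against 47.8 and 50.3 CPM, *C1qtnf7* at 4.16 and 10.7 against 37.1 and 53.0 CPM and *Angpt2*, the angiopoietin 2 gene, at 11.9 and 11.4 against 78.3 and 30.5 CPM. *Car2*, a carbonic anhydrase gene, was at 77.7 and 46.4 against 11.9 and 10.6 CPM. These 4 genes reached the gene filter through 1 genotype alone and stand as a description. *Socs3*, a feedback inhibitor gene of cytokine signalling, was at 104 and 90.4 against 332 and 301 CPM (1.75, SE 0.114, adjusted p = 2.43e-05, and 1.52, adjusted p = 0.00117 with *Limch1*). *Slc5a3*, which encodes a sodium-coupled myo-inositol transporter, was at 30.4 and 33.1 against 114 and 108 CPM (1.86, adjusted p = 6.21e-05, and 1.64, adjusted p = 0.00202 with *Limch1*). *Pdzd2*, a gene for a protein with several PDZ domains, was at 185 and 203 against 54.4 and 62.3 CPM (-1.69, adjusted p = 6.9e-05, and -2.08, adjusted p = 0.000674 with *Limch1*), and the protocadherin gene *Pcdh7* at 163 and 165 against 61.0 and 62.3 CPM (-1.37, adjusted p = 0.000139, and -1.41, adjusted p = 0.00181 with *Limch1*). *Col10a1*, the collagen gene of hypertrophic chondrocytes, was at 26.6 and 20.1 against 79.6 and 53.0 CPM (1.55). It too reached the gene filter through 1 genotype alone and stands as a description. The free RNA estimated from hemoglobin UMIs was 228% of its control level, and its change did not pass without mural UMIs (0.75, adjusted p = 0.295).

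To see whether these changes differed from those in other stromal cells, the genotype effect was tested against that in reticular cells and in osteocalcin-high cells, with the library as a block. Against 4086 reticular cells, 206 of 6569 genes (3.14%) changed more upward in the members and 101 (1.54%) more downward. With *Limch1* required, the counts were 55 and 36. *S100a4* differed by 3.02 (SE 0.194, adjusted p = 3.15e-06), *Ccn5* by 2.24 (adjusted p = 1.13e-05), *Fbn1* by 0.99 (adjusted p = 0.000108) and *Pdgfrb* by 0.77 (adjusted p = 0.000729). In the other direction *Col1a1* differed by -1.38 (adjusted p = 0.00127), since it went up by 0.52 in reticular cells, *Car3* by -2.16 (adjusted p = 5.21e-06), *Mmp16* by -1.69 (adjusted p = 0.00107) and *Adamts9* by -1.35 (adjusted p = 1.06e-05). All 8 passed with *Limch1* as well. Those of *S100a4* and *Ccn5* stand as a description, since at least 20% of the members had a UMI of them in mutants alone. *Ccn2* also differed, by 0.71 (adjusted p = 0.00482), but not with *Limch1* (0.50, adjusted p = 0.142), without *Lats2*iECKO library 2 (0.64, adjusted p = 0.066) or without control library 2 (0.56, adjusted p = 0.121). The difference of *Mmp16* was lost without *Lats2*iECKO library 2 (-1.09, adjusted p = 0.139).

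Against 1322 osteocalcin-high cells, 56 of 7207 genes (0.777%) changed more upward and 127 (1.76%) more downward, and 6 and 68 with *Limch1*. *Unc5c* differed by -3.22 (SE 0.331, adjusted p = 0.00106) and *Wif1* by -1.58 (adjusted p = 0.000458), with osteocalcin-high cells changing by 0.92 and 0.76. *Ccn2* differed by -1.30 (adjusted p = 0.000754), because its rise of 2.65 in osteocalcin-high cells was larger than in the members. *Col1a1* differed by -0.85 (adjusted p = 0.00616), as it changed by -0.06 in osteocalcin-high cells, and *S100a4* by 3.55 (adjusted p = 0.000203). These 5 differences passed with *Limch1* too. Those of *Unc5c* and *S100a4* stand as a description, since at least 20% of the members had a UMI of them in 1 genotype alone. That of *Col1a1* was lost without *Lats2*iECKO library 1 (-0.77, adjusted p = 0.156) or library 2 (-0.95, adjusted p = 0.0687), and no difference between classes was tested at equal depth.

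**Figure D5:**
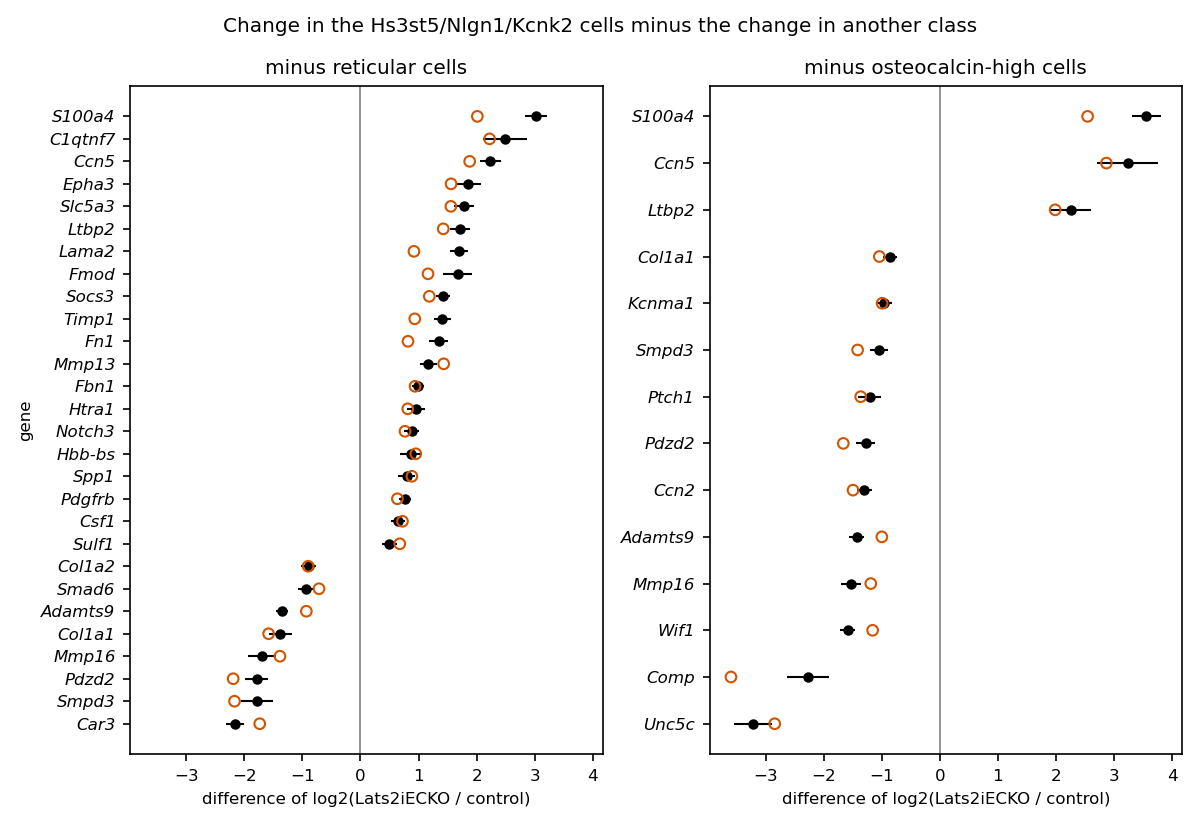
Difference of the log2 change (*Lats2*iECKO over control) in the *Hs3st5*/*Nlgn1*/*Kcnk2* cells minus that in reticular cells (left) and osteocalcin-high cells (right), by gene; filled points with bars give the value and its SE, open points the value in members with *Limch1*. Genes are plotted where the difference passed in all members and in members with *Limch1*, which leaves out *Mgp* (3.13 and 0.85 in all members). Of the plotted genes *S100a4* lay farthest to the right of 0, at 3.02 and 3.55, and *Col1a1* lay below 0 in both, at -1.38 and -0.85.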

How the data were processed

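The authors trimmed reads of 4 10x Genomics Chromium v3 libraries with cutadapt 3.5 and counted UMIs with STARsolo 2.7.10a on mm39 (GRCm39) with GENCODE annotation and transgene sequences, over exons and introns, and shared multi-mapped reads by expectation maximization. The deposited values are therefore estimated counts per gene and barcode, not normalized, and need not be whole. No deposited column lacked a sample (0).

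Here, counts of the members were summed per library and rounded, and all cells of 1 library count as 1 replicate (n = 2 per genotype), so that p-values speak only of the spread between these libraries. edgeR estimates that spread with information pooled over all genes, or over the 11 classes for the shares. Small p-values therefore rest on this pooling as well as on the 4 libraries. Genes kept by filterByExpr and detected in at least 20% of the members of either genotype were tested with edgeR 4.0.16 (TMM, quasi-likelihood, 2-sided, Benjamini-Hochberg over all genes tested, threshold 0.05) in R 4.3.3, and with DESeq2 1.42.0 as an alternative. The 3 rule genes were not tested. The same model with library as a block tested the difference from reticular and osteocalcin-high cells. Intervals for ratios of counts are exact and, like the limits set by 0 counts (3 counts), cover counting error only. No cells were clustered and no doublet caller was run, and possible doublets (markers of another type, or the top 5% of UMIs) were removed in an alternative. Free RNA was estimated from barcodes with 10 to 100 UMIs, scaled by hemoglobin UMIs to 1.23%, 1.76%, 4.29% and 2.24% of UMIs in *Lats2*iECKO libraries 1 and 2 and control libraries 1 and 2. Scaled by *S100a8* and *S100a9*, at only 5.00 to 6.62 CPM in the members, the same estimate gave 242%, 92.4%, 11.7% and 5.72%, so free-RNA shares depend on the scaling. Named genes are the label markers, the 12 largest changes in each direction with both mutant beyond both control libraries and at least 30 CPM (leaving out rule genes, mitochondrial and Y-linked genes, predicted or clone-based gene models and processed ribosomal copies), and from each list up to 4 largest changes and 2 highest genes, with *Lats2* and Cre-ERT2; *Acta2*, *Tagln*, *Mmp13*, *Socs3*, *Adamts9*, *Alpl*, *Htra1*, *Ibsp*, *Loxl1*, *Npy*, *Ntng1*, *Robo1*, *Runx2*, *Tnfrsf19*, *Fn1*, *Fbn2*, *Pdgfra*, *Tgfb1*, *Kcnip4* and the genes of *Limch1*-negative cells were chosen after their values were seen. The members and gene lists were chosen with earlier results of these data known. On data drawn with known answers, the members' test called 34 of 50 genes lowered 2-fold, 44 of 50 raised 2-fold, 50 of 50 lowered 4-fold, 50 of 50 raised 4-fold and 6 of 6288 unchanged genes, while the test of differences between classes called 22, 31, 44 and 50 of 50 in the same order and 3 of 6286 unchanged genes. The drawn data held only genes with higher summed counts, all with the same fixed spread between libraries and all taken as detected. These rates therefore need not hold for the real genes. Gene coordinates are from GENCODE M39 on GRCm39. Plots were drawn with matplotlib 3.10.9. Some items of these data are not reported here.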

Additional observations from a re-analysis of the deposited data

Results flagged for a closer look

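In these genes the difference between the genotype effect in the *Hs3st5*/*Nlgn1*/*Kcnk2* cells and that in another class passed the test of the difference itself, in all members and in members with *Limch1*. The second set is part of the first, so a pass in both is not an independent second test. Values are differences of log2 changes, members minus the other class. *S100a4*, *C1qtnf7*, *Ccn5*, *Ltbp2*, *Smpd3* and *Unc5c* were detected in at least 20% of the members of 1 genotype alone, so their differences stand as a description.

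Against reticular cells the members changed more upward in *S100a4* (3.02), *C1qtnf7* (2.49), *Ccn5* (2.24), *Epha3* (1.86), *Slc5a3* (1.78), *Ltbp2* (1.71), *Lama2* (1.70), *Fmod* (1.68), *Socs3* (1.42), *Timp1* (1.41), *Fn1* (1.35), *Mmp13* (1.17), *Fbn1* (0.99), *Htra1* (0.96), *Notch3* (0.88), *Hbb-bs* (0.88), *Spp1* (0.79), *Pdgfrb* (0.77), *Csf1* (0.65) and *Sulf1* (0.49). They changed more downward in *Col1a2* (-0.89), *Smad6* (-0.94), *Adamts9* (-1.35), *Col1a1* (-1.38), *Mmp16* (-1.69), *Smpd3* (-1.79), *Pdzd2* (-1.79) and *Car3* (-2.16). *Hbb-bs* is a hemoglobin gene, known from red cells, and hemoglobin UMIs were the measure of free RNA here. With free RNA subtracted its change in the members was 2.33 (adjusted p = 0.145). That subtraction was scaled to remove the summed hemoglobin UMIs, so its outcome for *Hbb-bs* cannot tell whether free RNA made the difference.

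Against osteocalcin-high cells the members changed more upward in *S100a4* (3.55), *Ccn5* (3.24) and *Ltbp2* (2.26). They changed more downward in *Col1a1* (-0.85), *Kcnma1* (-0.95), *Smpd3* (-1.05), *Ptch1* (-1.21), *Pdzd2* (-1.27), *Ccn2* (-1.30), *Adamts9* (-1.43), *Mmp16* (-1.53), *Wif1* (-1.58), *Comp* (-2.27) and *Unc5c* (-3.22). *Comp*, a cartilage matrix gene, *Ptch1*, *Sulf1* and *Mmp13* were themselves not called in all members. With free RNA subtracted *Sulf1* was at -0.34 (adjusted p = 0.0735), so its difference does not mean a rise in the members. At equal depth *Spp1* (-0.09), *Csf1* (0.03), *Kcnma1* (-0.25) and *Col1a1* (-0.12) were not called in the members either.

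The calls depend on the libraries. Against reticular cells *Sulf1* lost its call without each of the 4 libraries in turn, *Spp1* without *Lats2*iECKO library 1, *Smpd3*, *Fmod*, *C1qtnf7*, *Mmp16*, *Csf1* and *Hbb-bs* without *Lats2*iECKO library 2, *Csf1* also without control library 1 and *Hbb-bs* also without control library 2. Against osteocalcin-high cells *Col1a1* lost it without either *Lats2*iECKO library.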

How the results depend on the processing

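The fall in the share of the cells kept its direction and its call under every alternative run, between -1.66 and -2.59, and between -1.76 and -1.87 with 1 library left out. The counts of genes moved more. From 385 higher and 260 lower they became 199 and 121 with DESeq2, 2 and 0 without a gene filter (24096 genes tested with edgeR, 2428 at an unadjusted p under 0.05), 55 and 40 with all 3 genes detected, 121 and 50 at equal depth, 143 and 74 without mural UMIs and 58 and 52 with *Limch1* detected. With 1 library left out they ran from 16 to 354 higher and 10 to 243 lower. The other alternatives gave 295 to 441 higher and 191 to 264 lower. In members with *Limch1*, DESeq2 gave 44 and 35, and leaving out *Lats2*iECKO library 1 gave 156 and 129, library 2 230 and 165, control library 1 22 and 16, and control library 2 1 and 0 (edgeR, 529 at an unadjusted p under 0.05). The differences from reticular cells became 55 and 36 with *Limch1* and 112 to 153 and 56 to 75 with 1 library left out, against 206 and 101. Those from osteocalcin-high cells became 6 and 68, and 57 to 102 and 135 to 155, against 56 and 127. The cause of these shifts was not tested. Deviations of same-numbered libraries had a correlation of -0.0448. This value cannot tell whether such libraries were processed together, and the main test used no pairing. With the replicate block the share changed by -1.82, 359 genes were higher and 239 lower, and 161 and 122 with *Limch1*.

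Of 80 genes followed singly and called in all members, 1443 gene and setting pairs kept call and sign, 535 lost the call and 12 changed sign. Those were *Spp1* (-0.14 with all 3 genes, -0.087 at equal depth), *Ibsp* (-0.36), *Alpl* (0.0013) and *Timp1* (-0.00604) with all 3 genes, and *Thbs1* with *Limch1* (-0.25 with edgeR, with DESeq2 and with the block, and -0.38, -0.13, -0.16 and -0.34 without *Lats2*iECKO libraries 1 and 2 and control libraries 1 and 2). Among differences, *Thbs1* turned to -0.23 against reticular and *Mgp* to -0.45 against osteocalcin-high cells with *Limch1*. The mutant members' UMIs summed to 753806 and 754994, and the part of this low number in the lost calls was not tested.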

Other observations

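*Rps3a3*, a retrocopy related to *Rps3a1*, was at 4.23 and 3.37 CPM in the members of control libraries 1 and 2. In *Lats2*iECKO libraries 1 and 2 it was at 332 and 360 CPM (log2 change 6.57, and 5.49 in members with *Limch1*). At so low a control level it can have reached the gene filter only through the mutants, so it stands as a description. Such copies share reads with their parent gene, so the value is uncertain. *Ntng1*, which encodes the axon guidance protein netrin G1, was at 60.6 and 59.3 CPM in controls and at 29.8 and 8.61 CPM in *Lats2*iECKO, in too few members for the gene filter. *Esm1*, a secreted proteoglycan gene known from tip cells of growing vessels, was at 90.8 and 89.3 against 143 and 151 CPM (0.75, adjusted p = 0.00203, and 0.83, adjusted p = 0.0115 with *Limch1*). *Lepr* was at 282 and 322 against 163 and 221 CPM (-0.61, adjusted p = 0.0179, and -0.37, adjusted p = 0.218 with *Limch1*).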
